A study of Mus musculus with 3 samples.

Results

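Tracts of neighbouring binding peaks of the leukaemia fusion protein NUP98-HOXD13 were described in 4 genes, 9930021J03Rik, Umad1, Dennd1b and Dach1. The members were all peaks whose summit lay inside the RefSeq GRCm38 (mm10) span of one of these genes or within 10 kb of it. They were 22 of the 655 peaks listed for the DMSO library and 7 of the 439 listed for the VTP50469 library. The genes were chosen by their number of peaks in these same lists, and Umad1 was also selected on the fold of a peak found with DMSO alone. The numbers, folds and retention of these peaks are therefore given as a description, with no test.

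The cells were a mouse leukaemia line labelled NUP98-HOXD13, grown with IL-3, IL-6 and SCF, whose fusion protein carried biotin. The control pull-down came from cells given DMSO for 96 h, and the treated pull-down from cells given 2 µM VTP50469, which blocks the binding of menin to MLL, for 96 h. A DMSO input made up the third of the 3 samples and its data were not analysed here. Each group was 1 library from 1 line, so no value below has a replicate error. Whether the line is a single clone is not given in the sources used here, and markers of the labelled cell type were not analysed here, since peak lists hold no expression values.

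BioChIP-seq recovers the DNA crosslinked to a biotinylated protein on streptavidin beads. HOXD13 supplies the fusion with a homeodomain that binds DNA, and NUP98 supplies disordered repeats that attract transcriptional coactivators. Menin holds MLL histone methyltransferase complexes on chromatin, and HOX genes and their cofactors are the classical genes of this axis in leukaemia. The 4 genes here are less familiar in it. Dach1 encodes a nuclear corepressor that works with EYA coactivators in organ development, and Dennd1b a DENN-domain activator of RAB35 in endocytic traffic. Umad1 encodes a small protein with the UMA domain, a module found in ESCRT-I sorting proteins. 9930021J03Rik is a little-studied protein-coding gene whose entry carries the synonym mKIAA2026, and its human counterpart is counted among the bromodomain genes.

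One tract peak lay on an annotated gene start, and both annotated Dennd1b starts are shown so that the start with a peak can be set beside the start without one. The sequences are from RefSeq (GRCm38.p6, plus strand), 5′ to 3′, and run from 250 bases before to 50 after each start. Capitals mark the single match to CAATAAA, which lies on the minus strand and so reads TTTATTG on the plus strand printed here.
Dennd1b upstream start, chr1:138963459-138963758: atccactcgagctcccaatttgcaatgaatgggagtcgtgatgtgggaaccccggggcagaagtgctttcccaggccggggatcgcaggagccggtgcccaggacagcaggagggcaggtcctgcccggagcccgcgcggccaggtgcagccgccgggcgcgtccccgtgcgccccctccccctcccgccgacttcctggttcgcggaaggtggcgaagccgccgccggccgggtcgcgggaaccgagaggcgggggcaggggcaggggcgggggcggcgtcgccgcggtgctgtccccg
Dennd1b downstream start, chr1:138967471-138967770: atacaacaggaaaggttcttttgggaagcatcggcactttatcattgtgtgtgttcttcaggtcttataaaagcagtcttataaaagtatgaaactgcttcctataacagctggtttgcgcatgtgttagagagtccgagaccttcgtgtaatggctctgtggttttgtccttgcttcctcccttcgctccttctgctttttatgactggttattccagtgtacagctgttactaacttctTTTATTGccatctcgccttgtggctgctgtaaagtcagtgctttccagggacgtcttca
The downstream start window lay wholly inside a DMSO peak, which covered 300 of its 300 bases, and the VTP50469 peak covered 290. Peaks covered 0 bases of the upstream window in either list, and the nearest DMSO summit to that start lay 3954 bp away.

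The downstream start at position 138967721 had the DMSO summit 58 bp away and the VTP50469 summit 17 bp away. Within the window these summits fell at bases 193 and 234, and the CAATAAA match occupied bases 242 to 248, beginning 9 bases before the start at base 251. The 4 motifs searched on both strands were TCGTAAA and CAATAAA as letters of posterior HOX sites, TGATTTAT and TGATTAAT as letters of PBX-HOX sites. The single match overlapped no other. CAATAAA was found in 4.6% of all 32851 start windows of that length, TCGTAAA in 0.597%, TGATTTAT in 0.977% and TGATTAAT in 0.7%. None of the 4 motifs matched the upstream Dennd1b window or the windows of 9930021J03Rik, Umad1 and Dach1, which says only that these letters are not in those 300 bases. The downstream window was 43.3% G or C with 7 CG pairs, against 74.7% and 36 in the upstream window and medians of 52.7% and 7 over all windows. A summit in a start window was uncommon in either list. It was found for 9 of 613 DMSO peaks on the chromosomes (1.47%) and 7 of 400 VTP50469 peaks (1.75%).

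All 22 DMSO summits lay inside the gene spans, and the 10 kb flanks added none. The nearest DMSO summit outside a flank lay 524 kb from the span of 9930021J03Rik, 3170 kb from Umad1, 5590 kb from Dennd1b and 4420 kb from Dach1. Each tract thus stood apart from other listed peaks on its chromosome. Only 16 of 21887 protein-coding genes, or 0.0731%, had at least 4 DMSO summits in the span or within 10 kb, while 325 (1.48%) had at least 1. With 9 DMSO peaks, 9930021J03Rik held the most of any protein-coding gene. Dennd1b held 5, and Umad1 and Dach1 held 4 each.

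**Figure D1:**
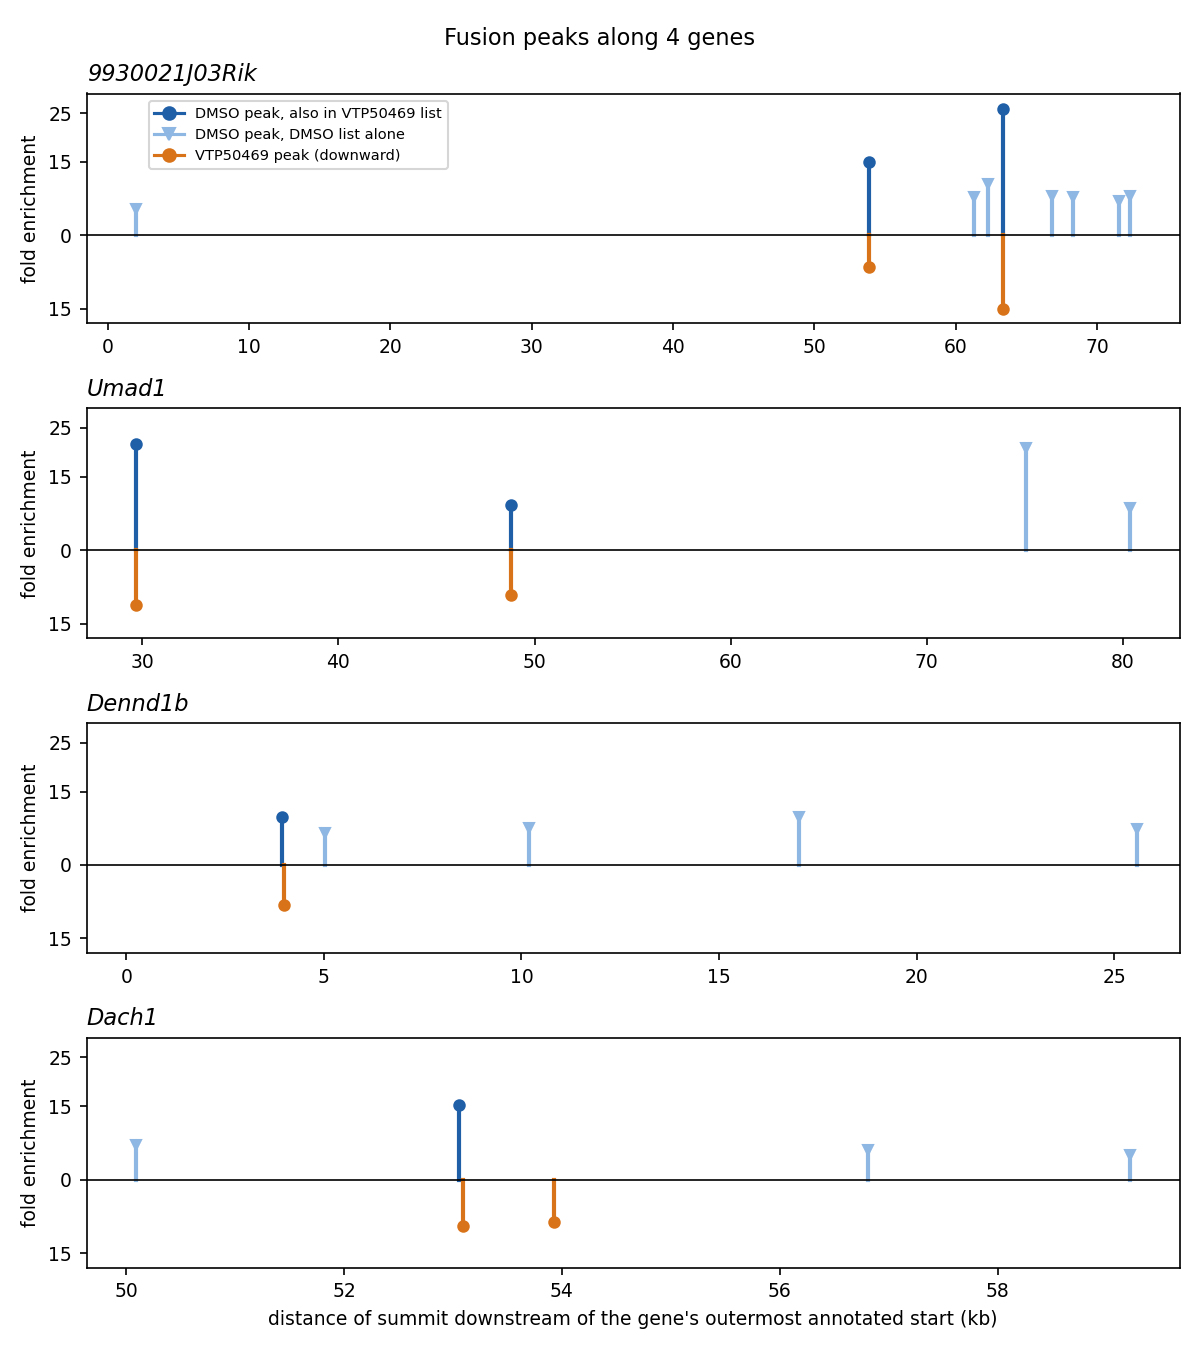
Each stem is 1 peak, with its fold enrichment upward for DMSO and downward for VTP50469. Its place is the distance of its summit downstream of the outermost start of the gene that has a start window (kb, a separate scale for each gene). Round dark marks are DMSO peaks also in the VTP50469 list (6), triangles are peaks of the DMSO list alone (16), and the 7 VTP50469 peaks all lie under or beside a round mark.

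Of the 22 tract peaks with DMSO, 6 shared at least 1 bp with a VTP50469 peak, or 27.3%, beside 49.8% of all DMSO peaks on the chromosomes (305 of 613). The 7 VTP50469 peaks of the tracts all overlapped a DMSO peak, beside 77.8% of that list. Every gene kept at least 1 of its peaks and lost at least 2. The peaks that stayed were 2 of 9 in 9930021J03Rik, 2 of 4 in Umad1, 1 of 5 in Dennd1b and 1 of 4 in Dach1. In each gene the DMSO peak of highest fold was among them. Fold is the peak caller's ratio of the library to a background at the summit, as the authors deposited it.

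The tract in 9930021J03Rik (chr19:29714402-29806548, minus strand, gene ID 240613) had the smallest median gap between summits of the 4 genes, 2353 bp. Among other genes with at least 4 DMSO peaks it was smaller in Tut4 (1251.5 bp), Zcchc7 (1811 bp) and Ankrd28 (2347 bp). A group of 8 peaks lay within 18977 bp, from 29733519 to 29752495, between 53.9 and 72.3 kb downstream of the annotated start. Their summits were spaced by a median of 1451 bp, with gaps from 802 to 7413 bp. A ninth and weakest peak, at 29803777 to 29804100 with a fold of 5.31, stood alone 2013 bp downstream of the start and 51883 bp from the next summit. The start used was that of the start window, 29806009, which lies inside the span. From the end of the span the lone summit lay 2552 bp away. This gene thus has a compact group deep in its body and a lone weak summit near its start.

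The strongest peak of the group, chr19:29742315-29743195, was 881 bp wide with a DMSO fold of 25.8, the rank 9 fold of all DMSO peaks. It stayed in the VTP50469 list with a fold of 15 and its summit shifted by 3 bp. The second, chr19:29751421-29752495, was 1075 bp wide with a fold of 15.1 and stayed with a fold of 6.37, its summit shifted by 6 bp. These were the widest intervals of the gene, and both narrowed, to 665 and 654 bp. The other 7 DMSO peaks, 267 to 402 bp wide with folds of 5.31 to 10.5, were absent from the VTP50469 list. The highest of them, with a fold of 10.5, had its summit 1052 bp from a listed VTP50469 summit. The VTP50469 list therefore held 2 positions 9438 bp apart where the DMSO list held 8 in the group. In bases, the intervals covered 4213 bp of the gene with DMSO and 1319 bp with VTP50469.

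Umad1 (chr6:8259288-8428767, plus strand, gene ID 100036521) had the largest median gap of the 4 genes, with 4 DMSO summits at 29.7, 48.8, 75.1 and 80.4 kb downstream of its start and gaps of 19102, 26253 and 5299 bp. The first peak, chr6:8288725-8289202, had a fold of 21.7 with DMSO and 11.2 with VTP50469, and its interval went from 478 to 288 bp. The second, chr6:8307951-8308449, had nearly the same fold in its own list each time, 9.14 with DMSO and 9.09 with VTP50469, with widths of 499 and 449 bp. The peaks that stayed in Umad1 thus differed in how far their listed folds moved.

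The third Umad1 peak, chr6:8333913-8334573, was absent from the VTP50469 list although its DMSO fold was 20.8, close to that of the first peak. It was 661 bp wide, and the nearest VTP50469 summit lay 26263 bp away. Of 24 DMSO peaks with a fold of at least 20, it was the single one that did not overlap a VTP50469 peak, and the next highest fold in the DMSO list alone was 14.7. This peak was part of the reason for choosing the gene, so its rank supports nothing further. The fourth peak, chr6:8339501-8339781, with a fold of 8.58, was also in the DMSO list alone. Both of these summits lay in Gm46952, a long non-coding RNA gene whose span (8333842 to 8345576) overlaps Umad1. By position, the peaks therefore cannot be assigned to either gene rather than the other. Both retained summits lay outside Gm46952.

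In Dennd1b (chr1:138963709-139176043, plus strand, gene ID 329260) the 5 DMSO summits lay in the first 12% of the span, at 4.0, 5.0, 10.2, 17.0 and 25.6 kb from the upstream start. Their gaps were 1085, 5141, 6841 and 8556 bp. The one that stayed was the peak over the downstream start shown above, chr1:138967421-138967821, with a DMSO fold of 9.89 and a VTP50469 fold of 8.13. A peak at 138980600 to 138980867 had almost the same DMSO fold, 9.74, and was in the DMSO list alone. The folds of the remaining peaks were 6.59, 7.64 and 7.39, none of them was in the VTP50469 list, and no interval of the gene exceeded 401 bp. This was the tract with the lowest top fold.

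In Dach1 (chr14:97786846-98169765, minus strand, gene ID 13134) the peaks were confined to 9.82 kb, or 2.57% of a 383 kb span, between 50.1 and 59.2 kb downstream of the start. The gaps were 2407, 3755 and 2963 bp. The central peak, chr14:98115408-98117148, was 1741 bp wide, the widest of all tract peaks, with a DMSO fold of 15.2. In the VTP50469 list this interval was replaced by 2 narrower ones, 379 bp with a fold of 8.61 and 622 bp with a fold of 9.40, whose summits lay 835 bp apart. The second of these had its summit 36 bp from the DMSO summit and the first 871 bp from it. The flanking DMSO peaks had folds of 5.08, 6.14 and 7.19 and were in the DMSO list alone. The Dach1 tract was thus a single broad interval with weaker peaks on both sides.

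The tracts differed in density and in place along the gene. Intervals covered 30.1% of the stretch from the first to the last DMSO peak in Dach1, 6.82% in Dennd1b, 5.97% in 9930021J03Rik and 3.76% in Umad1. The 9930021J03Rik stretch of 70.6 kb includes the lone summit near the start, while its group of 8 peaks lay within 19 kb. In Dach1 the central peak made up 1741 of the 2954 bp covered. Over all 4 genes the 18 gaps between neighbouring summits had a median of 3626.5 bp, and 10 were under 5 kb. Apart from the Dennd1b peak on the downstream start, the summits lay 1027 bp or more from an annotated start of their own gene.

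**Figure D2:**
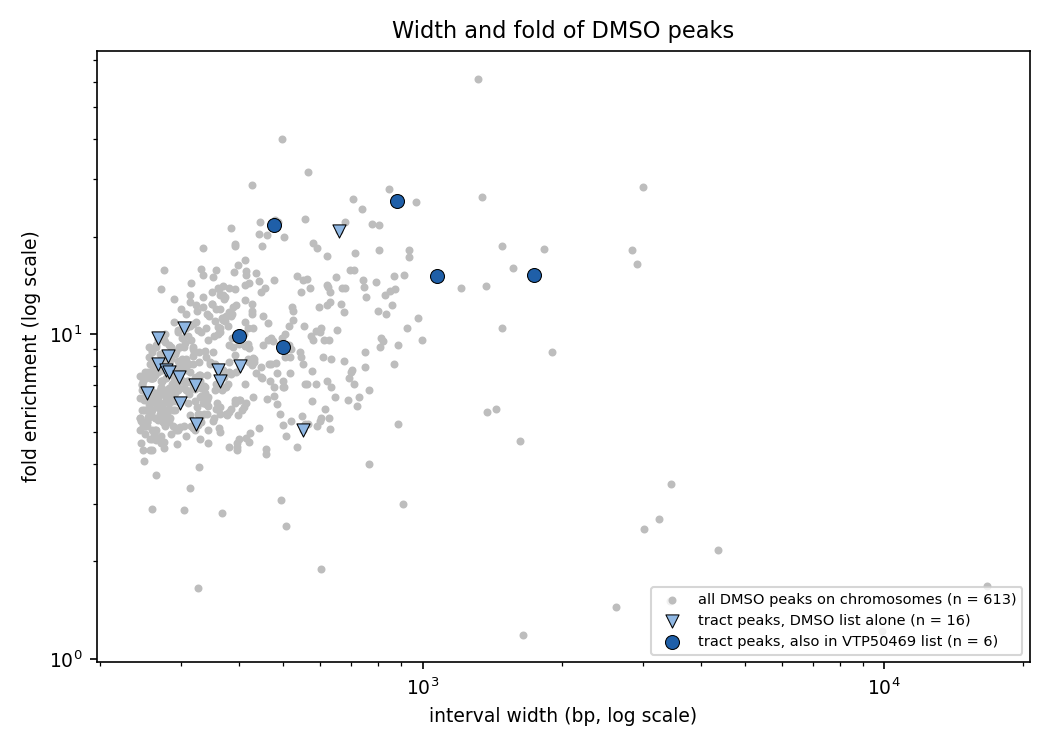
Each point is a DMSO peak on the chromosomes, by interval width (bp, log scale) and fold enrichment (log scale), with all 613 in grey. The 6 tract peaks that stayed (round) span folds of 9.14 to 25.8 and widths of 401 to 1741 bp, and the 16 of the DMSO list alone (triangles) mostly sit lower and to the left, with the Umad1 peak of fold 20.8 as the exception.

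Tract peaks that stayed had a higher median fold and width than those of the DMSO list alone, as in the DMSO list as a whole. Their median DMSO fold was 15.1 against 7.71 for the tract peaks of the DMSO list alone, and their median width 690 bp against 302 bp. Over all DMSO peaks on the chromosomes the medians were 9.25 against 6.89 for fold and 413 against 308 bp for width. When all DMSO peaks were divided into 4 equal bins by −log10 q, the weaker 2 bins held 3 and 7 tract peaks, of which 0 and 0 stayed, beside 27.3% and 35.3% of all peaks of those bins. The third bin held 7, of which 2 stayed (49.7% of all), and the strongest held 5, of which 4 stayed (86.9% of all). In each of the 4 bins the share of tract peaks that stayed was below that of all peaks of the bin, a difference that was not tested. The bins held only 3 to 7 tract peaks. The strongest bin's only tract peak of the DMSO list alone was the third Umad1 peak, on which that gene was partly chosen. The genes were chosen by their number of peaks in these same lists, so the shares are description only.

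The depth behind these values was inferred from the fold and p-value with a Poisson model, whose scale and background were fitted to each list. Only whole numbers of fragments were tried, and every tract summit had a solution. Of the 22 DMSO tract peaks, 15 stood on the genome-wide background level fitted by the model. The raised ones reached 2.28 times that level at the fourth Umad1 peak, whose 96 fragments gave a lower fold than the 58 of the second. The part of this background in which peaks stayed was not tested. The 16 peaks of the DMSO list alone had 33 to 136 fragments with a median of 49.5, and 14 of them had under 70. Tract peaks that stayed had a median of 113, and those with 58 and 63 were also under 70. At the genome background the lowest listed summit had 28 fragments with DMSO and 26 with VTP50469. A site missing from a list has no value there, so an absent peak means a signal that was not listed and not a signal of 0.

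Fragments could be compared at the 6 summits of the tracts that lay within 200 bp in both lists, assuming that both lists were called against the same control, which no source states. On that assumption the VTP50469 library was 5.5% shallower, and ratios of VTP50469 to DMSO fragments were scaled for this. Exact 95% intervals cover counting error between 2 libraries only, and each summit is a maximum of its own list. All 6 ratios were below 1, beside 68.1% of 279 matched summits in the whole lists, and 4 of the 6 intervals lay wholly below 1, beside 19.7%. Those 4 summits had 98 to 169 DMSO fragments and the other 2 had 58 and 63. More fragments narrow an interval, and the 279 summits were not matched for fragments. The 4 of 6 and the 19.7% are therefore not like for like. Nor are the 6 of 6 and the 68.1%, since the 4 genes were chosen by their number of peaks in these same lists.

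The second strong 9930021J03Rik peak had 98 fragments with DMSO and 37 with VTP50469, a ratio of 0.4 (0.266 to 0.589) that ranked 5 from the lowest of the 279. The first Umad1 peak had 142 and 67, a ratio of 0.499 (0.368 to 0.672). The strongest 9930021J03Rik peak had 169 and 91, a ratio of 0.57 (0.437 to 0.74). These summits stayed in the list with 0.57 or less of their scaled fragments. The Dach1 summit had 128 and 74, a ratio of 0.612 (0.453 to 0.821), on an inferred local background 1.52 and 1.55 times the genome level. At the Dennd1b downstream start the counts were 63 and 48, a ratio of 0.806 (0.542 to 1.19). The second Umad1 peak had 58 and 54, a ratio of 0.985 (0.667 to 1.45). For these last 2 summits the interval included 1, and the median over all matched summits was 0.899.

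**Figure D3:**
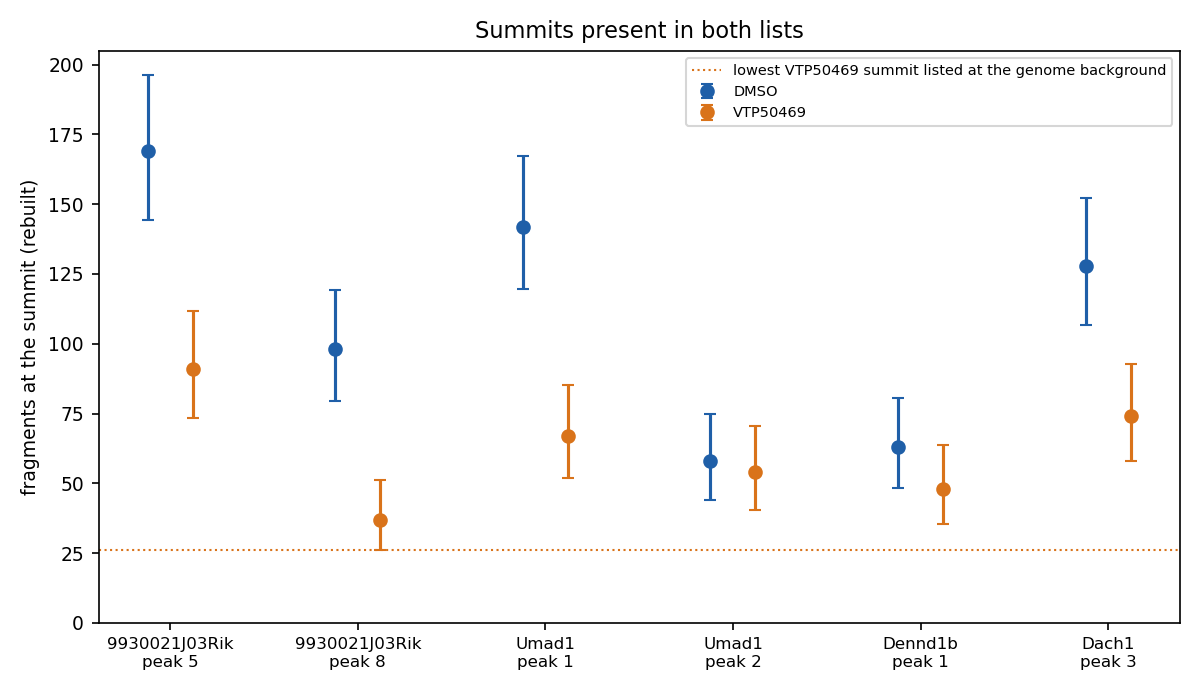
Rebuilt fragments at the summits found in both lists, before scaling for depth, with exact Poisson 95% intervals as bars that cover counting error only. The dotted line is the lowest VTP50469 summit listed at the genome background (26 fragments). DMSO and VTP50469 bars do not overlap at 9930021J03Rik, Umad1 peak 1 and Dach1, and overlap at Umad1 peak 2 and Dennd1b.

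Other protein-coding genes with at least 4 DMSO peaks were set beside the tracts. There were 12 of them, with 53 distinct peaks, of which 19 or 35.8% overlapped a VTP50469 peak, and their median fold was 9.14. Hoxa7 and Hoxa9, homeobox genes that share the same 5 peaks through their flanks, kept 4. Adk, the adenosine kinase gene, kept 4 of 4, and Foxp1, a forkhead transcription factor gene, kept 0 of 4. Pbx3, a HOX partner gene, kept 2 of 7, and Tut4 and Zcchc7, genes of RNA processing, kept 1 of 7 and 1 of 6. Ankrd28 kept 3 of 4, and Fgd4, Pcdh7, Phip and Stag1 kept 1 of 4 each, as Dach1 did. Apart from Hoxa7, Hoxa9, Adk and Ankrd28, these genes kept 0% to 28.6% each, beside 20% to 50% in the 4 tracts. With 1 library per treatment the difference between the tracts and the 12 genes could not be tested, and the tracts were chosen with these counts known.

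**Figure D4:**
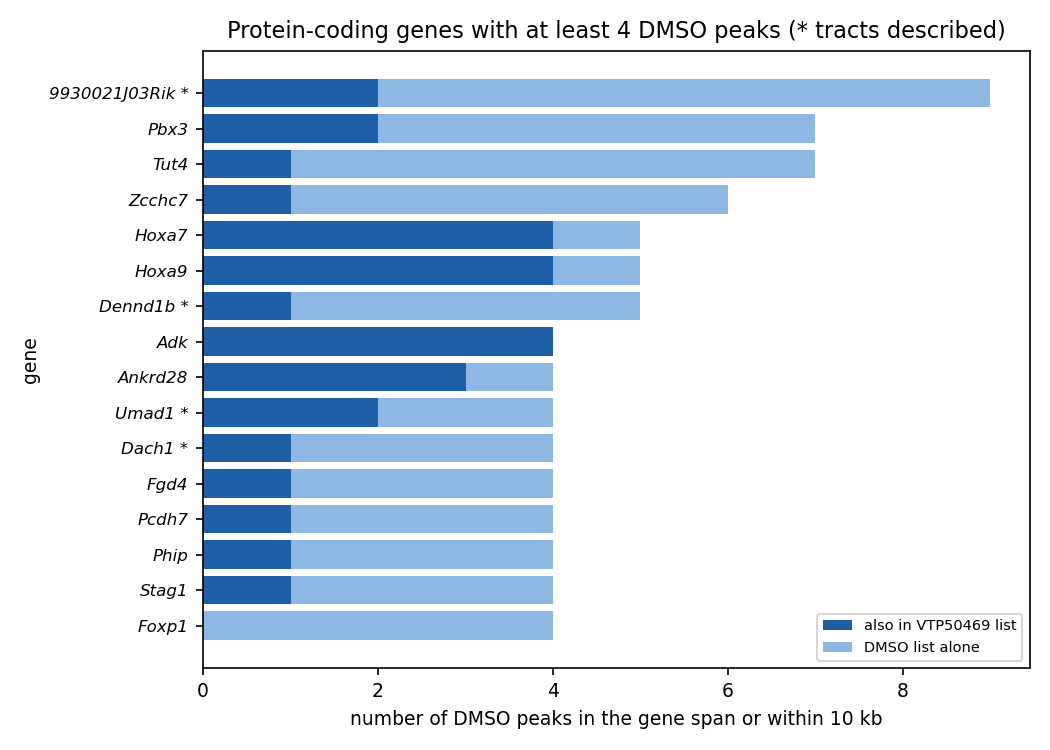
Bars give the number of DMSO peaks in the span or within 10 kb of each of the 16 protein-coding genes with at least 4, divided into peaks also in the VTP50469 list (dark) and peaks of the DMSO list alone (light). The 4 genes with an asterisk are those described, and 9930021J03Rik has the longest bar, with 9.

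Relatives of the 4 genes mostly had no peak. Each list of relatives includes its tract gene, which was chosen for having peaks, so each count holds at least that gene by construction. Of 16 DENN-domain genes found in the gene table, Dennd1a and Dennd1b had a DMSO summit and Dennd1b had a VTP50469 summit. The Dennd1a peaks, in another activator of RAB35, had folds of 13.9 and 6.74 at chr2:38165263-38165932 and chr2:38166548-38166915, and neither was in the VTP50469 list. Of 14 genes of the retinal determination network (the Dach and Eya families, their homeobox partners, Ski and Skil), Dach1 and Eya1 had a DMSO summit and Dach1 had a VTP50469 summit. Eya1, a coactivator with phosphatase activity, had folds of 5.38, 6.35 and 11 with DMSO alone. Of 11 genes for ESCRT-I and UMA-domain proteins, Umad1 had a summit in either list and none of the others did.

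Of 39 bromodomain genes, 9930021J03Rik, Phip, Baz1a and Baz2b had a DMSO summit, and 9930021J03Rik and Phip had a VTP50469 summit. Phip, which encodes a bromodomain protein with WD repeats, had 4 DMSO peaks, and the one that stayed was its strongest and widest. That peak, chr9:82961275-82962027, was 753 bp wide with a fold of 13 and became 351 bp with a fold of 7.47. Its others had folds of 6.29, 7.44 and 9.59. Single peaks in Baz1a and Baz2b, genes of chromatin remodelling subunits, had folds of 7.64 and 10 and were in the DMSO list alone. Over all protein-coding genes, 1.48% had a DMSO summit and 1.06% a VTP50469 summit. The shares in the lists of relatives cannot be measured against these, since each list includes a gene chosen for its peaks.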

How the data were processed

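Each pull-down had 1 deposited peak list, so peaks were called per library. MACS2, bedtools, SAMtools 1.95, Picard 2.9.4, STAR 2.7.5a and the mm10 build are named in the submitters' processing notes. Which tool did what, with which settings and control, is not given in the sources used here. The authors deposited for each peak a fold enrichment (a ratio to background), a −log10 p-value, a −log10 q-value, a summit offset and a score, and the score was not used. Comparisons with the whole lists used the 613 DMSO and 400 VTP50469 peaks on assembled nuclear chromosomes. Gene spans and start windows came from RefSeq tables of GRCm38.p6. The spans carry no exons, so a summit in a span may be exonic or intronic.

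A DMSO peak stayed when at least 1 bp overlapped a VTP50469 peak. Fragments were rebuilt from fold and −log10 p with a Poisson model and a pseudocount of 1, matched within 0.01, which solved 600 of 613 DMSO and 389 of 400 VTP50469 peaks. On 300 simulated peaks for each list, 300 and 299 were right and 0 wrong. These peaks were simulated from the same model with its fitted scale and background. They check the inversion alone and not whether the model holds for the deposited lists. Read totals were not read from the lists. Intervals are exact Clopper-Pearson. Members, gene lists and motifs were chosen with earlier results of these data known. Named genes were the 4 tract genes, genes whose span holds a tract summit, listed relatives with a summit, and genes with at least 4 DMSO summits. All listed symbols were found, 17 DENN symbols naming 16 genes. The software was Python 3.11.15 with scipy 1.17.1, pandas 2.3.3, numpy 2.4.6 and matplotlib 3.10.9.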

Additional observations from a re-analysis of the deposited data

How the results depend on the processing

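Several alternatives could not move the results. Removing the flank or widening it to 50 kb changed no count. All summits lay inside the spans, and the nearest outside lay 524 kb away. Merging summits under 500 bp apart could not change the gaps, the smallest being 802 bp. All 6 peaks that stayed had DMSO −log10 q of at least 13.4, so a DMSO threshold of 10 could not lower their count. With these included, the tracts' totals and median gap stayed within 1.5 times the main value at 20 of 21 alternatives. The exception was −log10 q of at least 10, where 12 of the 22 DMSO peaks remained, fewer by construction. By gene, 9930021J03Rik then had 4 DMSO and 1 VTP50469 peaks, Dennd1b 3 and 0, and Dach1 1 DMSO peak, so with that threshold on both lists Dennd1b kept none (its VTP50469 peak had −log10 q of 9.96). The 6 DMSO peaks that stayed were 5 with reciprocal overlap of at least 50 percent, 8 with intervals extended by 1 kb and 6 with summits within 200 bp. At equal list length 6 of 18 tract peaks stayed (33.3%) beside 60.8% of all. With −log10 q of at least 10 required of DMSO peaks but not of VTP50469 peaks, 6 of 12 stayed (50%) beside 67.9%. With reciprocal overlap Dach1 kept 0, since its wide interval met 2 narrow ones, and with 1 kb extension Dennd1b kept 2. At a fold of at least 7 Dach1 held 2 DMSO peaks and 9930021J03Rik 1 VTP50469 peak. Divided by the median of all matched summits, the fragment ratios ran from 0.445 to 1.1, and that of the second Umad1 peak passed from 0.985 to 1.1, within its interval. Leaving out genes, the lone summit and this division were added after seeing the data. No paired analysis was possible because every group is a single library. Weak single peaks rest on few fragments and are the least certain.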
